A study of Homo sapiens with 12 samples.

Results

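The clustered histone genes are the histone genes that lie together in the HIST1 cluster on chromosome 6, the HIST2 and HIST3 clusters on chromosome 1 and at HIST4H4 on chromosome 12. Members were the rows whose symbol starts with HIST, a cluster number from 1 to 4, H and a histone type from H1 to H4, without the endings that mark a pseudogene. That gave 75 of the 58830 genes in the table: 6 of type H1, 17 of H2A, 23 of H2B, 14 of H3 and 15 of H4. Another 14 rows were left out as pseudogenes by the ending of their symbol. Members counted as measured where 3 or more of the 12 libraries reached a value of 10. This held for 41 members (4 H1, 5 H2A, 16 H2B, 5 H3 and 11 H4) and for 20456 genes in all. The other 34 members are accounted for with the levels and were not tested. The rule did not use any contrast between the groups.

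RNA was sequenced from A549 cells, an established human lung adenocarcinoma line, and from an A549 derivative named A549_Sm22mut, whose genotype is given as miR22/SNAI1 target site KO. It is called the edited line here. Each line was sampled on day 5, either untreated or with TGFβ at 10 ng/mL, a cytokine used to induce epithelial-mesenchymal transition. The 4 groups (untreated wild type, TGFβ-treated wild type, untreated edited line, TGFβ-treated edited line) held 3 libraries each, described as biological repeats, so p-values reflect how far such repeats differ. Both lines grew in the same serum-containing medium. Only 1 derivative carries the edit, and effects of the edit and of deriving the line cannot be told apart. The sources used here do not say whether it is a single clone.

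Histones package DNA. Types H2A, H2B, H3 and H4 form the core around which DNA is wrapped, and H1 is the linker histone that binds where DNA enters and leaves the core. Clustered histone genes are known for supplying new histone during S phase. Most lack introns, and their messages end in a short conserved stem-loop, bound by SLBP (stem-loop binding protein), in place of a poly(A) tail. Several of them are known to make polyadenylated messages as well, by reading past the stem-loop, in cells that cycle slowly or have stopped.

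The stem-loop was looked for in the members' annotated transcripts because it marks where a replication-type message ends. The pattern was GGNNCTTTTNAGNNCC, read on the transcript strand. It was present in GENCODE 29 transcripts of 34 of the 75 members, 25 of them among the 41 tested. Many of the other models are short, and the absence of a match says only that these letters are not in those models. There were 5 forms of the element, given 5′ to 3′ as DNA letters, with the loop of 4 bases in capitals.
Found in H2A, H2B and H3 members, among them HIST1H2AC, HIST1H2BE, HIST1H2BN, HIST1H3H and HIST2H2BE: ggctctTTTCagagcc
Found in HIST1H2BC, HIST1H2BD, HIST1H2BF, HIST1H3G and HIST3H3: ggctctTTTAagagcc
Found in HIST1H4B, HIST1H4E, HIST1H4H, HIST1H4J and HIST4H4: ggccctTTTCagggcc
Found in HIST1H4I, HIST2H4A and HIST2H4B: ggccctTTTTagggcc
Found in HIST1H2AG, HIST2H2BC and HIST2H2BD: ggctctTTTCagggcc

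The first form was found in 18 members and the others in 3 to 5 members each. The forms with gggcc in the second arm and ggccc in the first were found in H4 members only among the 34. Of the 75 members, 30 had a GENCODE model that was spliced or ran at least 100 bases past the stem-loop, and 24 of these were tested. These 30 held 71.5% of the members' summed values.

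Similar members may share reads. Over windows of 50 bases of the annotated member transcripts, 17 of the 41 tested members shared none with another member, and 4 shared at least 50%: HIST2H4A (97.5%) and HIST2H4B (97.2%), mainly with each other, HIST1H4K (100%), mainly with HIST1H4J, and HIST1H2AI (62.3%), mainly with HIST1H2AJ. The sources used here do not say how the counting treated such reads or whether it used strand. In RefSeq on GRCh38.p14, the span of HIST1H4I lies inside that of HIST1H2BK on the other strand, over 397 bases. Exons were not compared. In GENCODE 29 neither of these 2 genes overlaps another gene. Whether their reads could mix depends on the annotation and strand use of the counting, which are not given. In GENCODE 29 the spans of 8 tested members overlap another gene on the other strand. HIST1H2BD and HIST1H2BE overlap AL353759.1, HIST2H4A overlaps HIST2H3C, and HIST2H4B overlaps HIST2H3A. HIST2H2BF overlaps FCGR1A, and HIST2H2BC and HIST2H2BD overlap each other. The span of HIST1H2BN covers HIST1H2AK on the other strand and HIST1H2AL on its own. HIST1H2BD also overlaps LARP1P1 on its own strand. HIST2H2BC and HIST2H2BD, kept by the symbol rule and tested, are pseudogenes in GENCODE 29, as are HIST2H2BA, HIST2H2BB and HIST3H2BA, which were not tested.

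The deposited values are normalized counts per gene, not scaled by gene length. Recovered reads ran from 84210775 to 111141708 per library, and clustered histone genes took 0.0126% to 0.0246% of them. Epithelial markers such as KRT8, KRT18, CDH1 and EPCAM were present in all 12 libraries, with KRT8 the highest of them. Lung lineage markers summed to 92.4 to 186 normalized counts per library, most of them on NAPSA, and the surfactant genes SFTPB and SFTPC were at or near 0.

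Reads on clustered histone genes came from few members. HIST1H2AC, HIST1H1C and HIST1H2BK held 54.7% of the summed values over all libraries, and with HIST1H2BD and HIST1H4I they held 68.6%. Per kilobase of GENCODE 29 exons the mean levels of these 5 were 5147 for HIST1H2BK, 3181 for HIST1H1C, 2705 for HIST1H2AC, 1594 for HIST1H2BD and 597 for HIST1H4I. The models of HIST1H2BK and HIST1H1C hold only 381 and 642 bases, so their levels per kilobase may be too high. The order of these 5 by level is therefore uncertain. Of the 34 members that were not tested, 11 were at 0 in all 12 libraries, and the highest value in any library was 14.4 (HIST1H3I). Just inside the limit, the third-highest value was 10.99 for HIST1H4B and 12.4 for HIST2H3D, and just outside it 9.97 for HIST1H3J and 9.25 for HIST1H3A and HIST1H3C. Beyond the limit lay 12 of the 17 H2A members and 9 of the 14 H3 members, against 7 of 23 H2B members and 4 of 15 H4 members. Of all members, 13 shared at least 50% of their 50-base windows with another member, and only 4 of these were tested. HIST1H2AD, HIST1H2AK, HIST1H2AM and HIST1H3D, at 0 in all libraries, each overlap another gene in GENCODE 29. HIST1H1A, HIST1H2AA, HIST1H2BA, HIST1H4F and HIST1H4G, also at 0, do not. The part of shared or overlapping reads in these low values was not tested.

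The summed normalized count of all 75 members was 15453, 14834 and 14271 in untreated wild type and 13864, 12102 and 12402 with TGFβ. In the edited line it was 21467, 22194 and 21347 untreated and 13665, 11646 and 13549 with TGFβ. The untreated edited line was the highest group in every library, 1.46 times untreated wild type in the mean, and the TGFβ groups of the lines overlapped. These are descriptions of sums. In bulk samples, fewer cells making a message and less of the message per cell cannot be told apart.

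**Figure D1:**
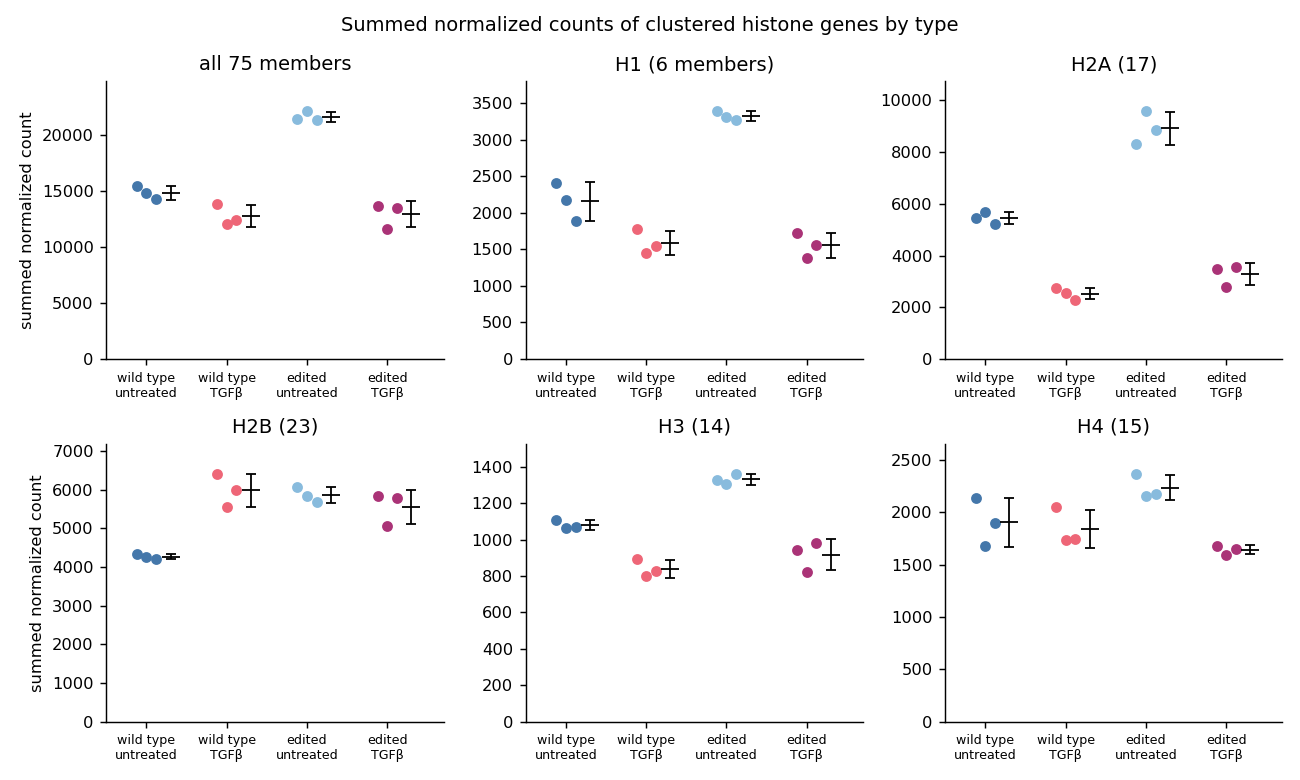
Summed normalized counts (y axis, linear from 0) of all 75 clustered histone genes and of each histone type, with 1 point per library and, beside the points, the mean with its SD (n = 3) for each of the 4 groups (x axis). The H2A sum is lower with TGFβ in both lines, at 2292 to 2734 against 5221 to 5667 in wild type, while the H2B sum is higher with TGFβ in wild type, at 5563 to 6417.

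The sums of the types differed in direction. The H2A sum was 5450.0 ± 224 in untreated wild type and 2527 ± 222 with TGFβ (SD, n = 3), and 8918 ± 646 and 3278 ± 428 in the edited line. HIST1H2AC made up 89.5% of it. Without HIST1H2AC, the other H2A members summed to 496 to 511 in untreated wild type, 472 to 558 with TGFβ, 509 to 571 in the untreated edited line and 506 to 585 with TGFβ, ranges that overlap. The H1 sum was likewise mostly 1 gene, with 94.7% from HIST1H1C. The H2B sum was spread more widely, with 36.2% from HIST1H2BK. It was 4263 ± 65.4 in untreated wild type and 5990 ± 427 with TGFβ, with no overlap, and 5861 ± 195 and 5560 ± 436 in the edited line, with overlap. The H3 sum was 1080.3 ± 25.4, 840.4 ± 48.2, 1331 ± 29.4 and 917 ± 84.8 in the order untreated wild type, treated wild type, untreated edited line and treated edited line. The H4 sum was 1904 ± 232, 1841 ± 179, 2235 ± 118 and 1642 ± 42.8 in the same order, and in wild type its libraries with and without TGFβ overlapped.

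The first comparison asked how TGFβ changed these genes in wild type cells. HIST1H2AC and HIST1H1C fell, HIST1H2BC, HIST1H2BD and HIST1H2BK rose, and members of the same type went both ways. Of the 41 members tested, 7 rose and 10 fell (limma, Benjamini-Hochberg adjusted p under 0.05), which is 17.1% and 24.4%. Over all 20456 genes tested, 30.8% rose and 30.9% fell, 61.7% in all. The share of members that passed was 41.5%, and its difference from that of all genes was not tested. Their median log2 fold change was -0.19, against 0.02 over all genes. Of the 17 tested members with a mean of at least 100, 6 rose and 7 fell (76.5%), and of the 24 with a lower mean 1 rose and 3 fell (16.7%). The 61.7% covers genes of all levels past the filter and matches neither group in level. With the filter raised from 10 to 50, 11305 of 15749 genes passed.

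Among the linker histones, HIST1H1C (ENSG00000187837.3, chromosome 6, 26055787 to 26056428, minus strand) was at 2257, 1995 and 1749 in untreated wild type and 1678, 1386 and 1467 with TGFβ. Every treated library lay below every untreated one, and the log2 fold change was -0.40 ± 0.10 (standard error, adjusted p = 0.00337). HIST1H1D fell further, from 58.8, 61.8 and 54.8 to 13.2, 13.4 and 17.7 (-1.93 ± 0.41, adjusted p = 7.00e-04). HIST1H1E fell too (-0.88 ± 0.25), so 3 of 4 tested H1 genes fell and 0 rose.

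HIST1H2AC (ENSG00000180573.9, chromosome 6, 26124145 to 26139116, plus strand), a core H2A gene, was at 4951, 5171 and 4710.5 untreated and 2214, 1997 and 1821 with TGFβ. All treated libraries were below all untreated ones, a 2.46-fold decrease (log2 fold change -1.30 ± 0.10, adjusted p = 6.97e-09). It was the only 1 of 5 tested H2A genes to pass. HIST1H2AG, the next H2A gene by summed counts, was at 272 to 315 untreated and 284 to 354 with TGFβ, and the groups overlapped (0.15 ± 0.13).

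H2B genes went both ways, with 5 of 16 higher and 2 lower. HIST1H2BC (ENSG00000180596.7, chromosome 6, 26114873 to 26123926, minus strand) rose from 129.6, 138 and 114 to 303, 336 and 361, with no overlap (2.61-fold, log2 fold change 1.39 ± 0.13, adjusted p = 1.06e-07). HIST1H2BD rose from 942, 896 and 984 to 1767, 1549 and 1769 (0.85 ± 0.09, adjusted p = 6.24e-07). HIST1H2BK rose from 1551, 1297 and 1477 to 2669, 2128 and 2228 (0.70 ± 0.10, adjusted p = 1.01e-05). These 3 are among the members known to make polyadenylated messages. HIST1H2BE rose from 87.7, 88.2 and 68.8 to 158, 155 and 179 (1.007 ± 0.31, adjusted p = 0.0102). HIST2H2BE, on chromosome 1 and also known for a polyadenylated message, was at 543, 519 and 463 untreated and 669, 595 and 646 treated (0.33 ± 0.10, adjusted p = 0.0114), a call that ended without replicate 3 of untreated wild type (0.26, adjusted p = 0.0606). HIST1H2BN (ENSG00000233822.4, chromosome 6, 27837760 to 27865798, plus strand) fell from 365, 476 and 382 to 151, 164 and 139 (-1.42 ± 0.23, adjusted p = 4.84e-05). HIST1H2BO fell from 105, 67.6 and 60.2 to 36.3, 25.9 and 17.7 (-1.52 ± 0.34, adjusted p = 9.69e-04).

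Of the 5 tested H3 genes, HIST1H3H fell from 312, 265 and 366 to 215, 207 and 133 (-0.78 ± 0.19, adjusted p = 0.00164), HIST1H3E fell by 0.24 (standard error 0.10, adjusted p = 0.0455), and none rose. The HIST1H3E call was lost in 11 of 21 other fits, with adjusted p from 0.0518 to 0.235, the highest without replicate 2 of treated wild type (-0.15). Of the 11 tested H4 genes, 2 rose and 2 fell. HIST1H4I (ENSG00000276180.1, chromosome 6, 27138588 to 27139881, plus strand) was at 703, 498 and 585 untreated and 1062, 837 and 868 treated, all treated libraries being higher (0.64 ± 0.13, adjusted p = 3.59e-04). HIST4H4, the lone member outside chromosomes 1 and 6, rose as well (0.76 ± 0.28, adjusted p = 0.0295), a call that ended when untreated wild type lacked replicate 2 (0.76) or 3 (0.61) or treated wild type lacked replicate 3 (0.45). HIST2H4A (ENSG00000270882.2, chromosome 1, 149832659 to 149839767, plus strand) fell from 139.6, 226 and 220.2 to 75.8, 74.8 and 47.1 (-1.55 ± 0.28, adjusted p = 1.64e-04). Its near-identical copy HIST2H4B had -0.999 ± 0.44 and did not pass (adjusted p = 0.0575), and the split of reads between the pair is uncertain. HIST1H4H fell (-0.61 ± 0.13, adjusted p = 5.84e-04).

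**Figure D2:**
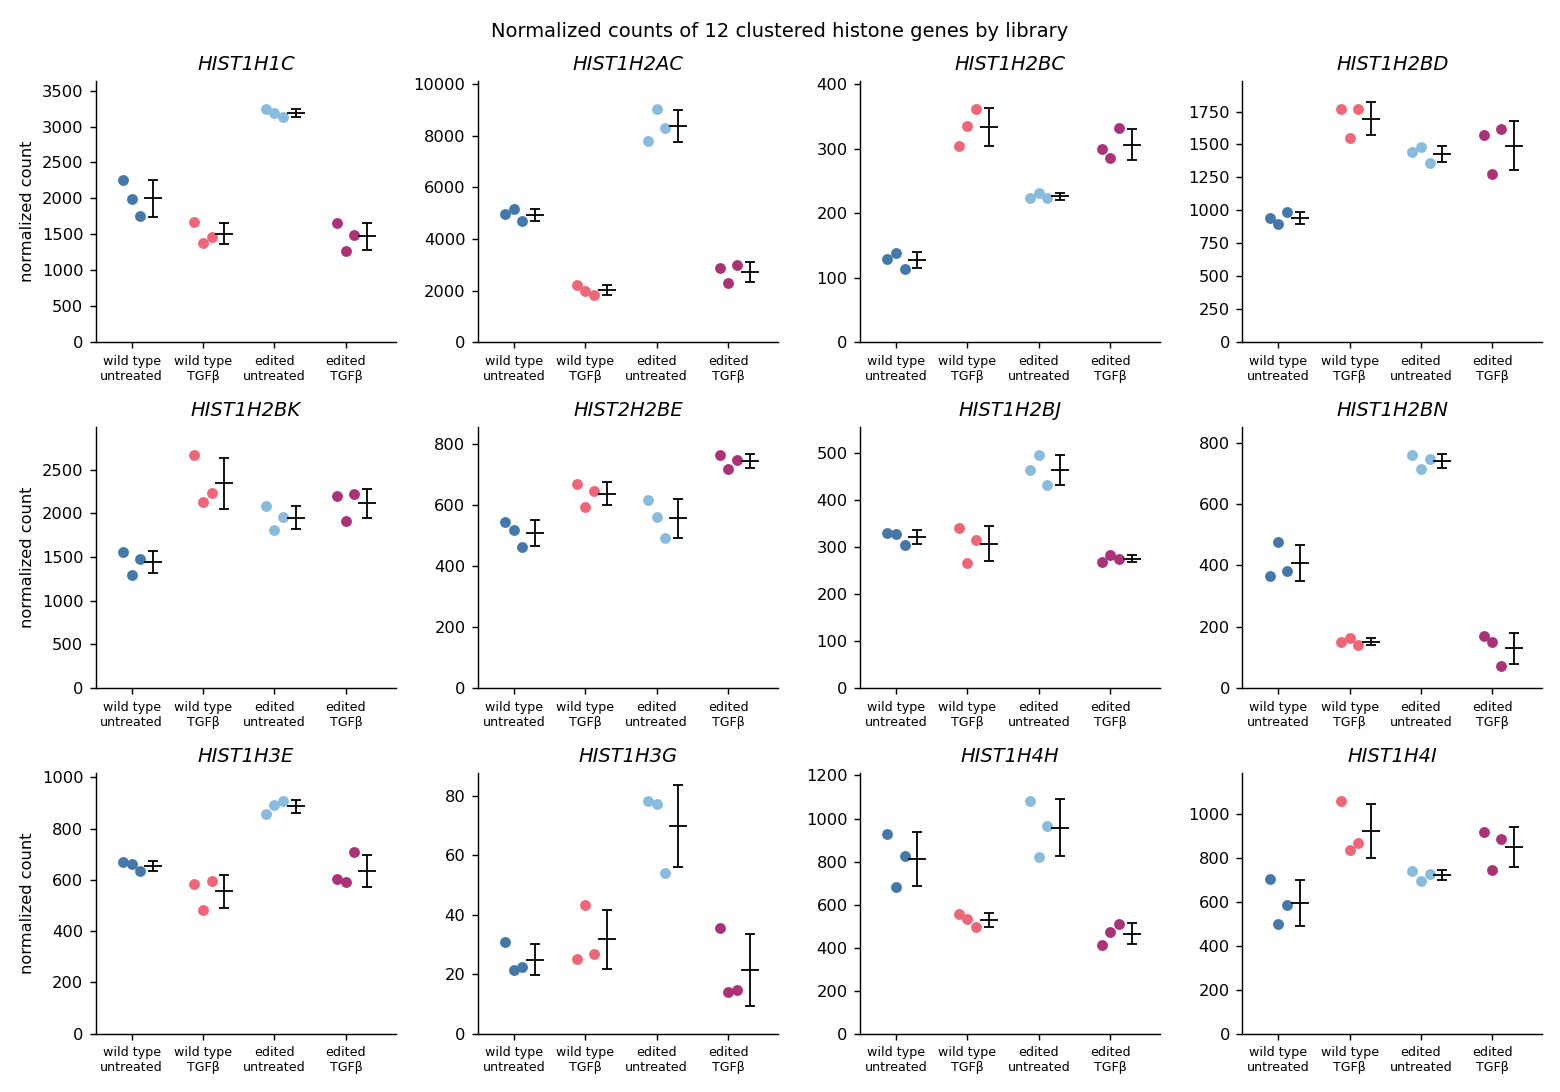
Normalized counts (y axis, linear from 0) of 12 clustered histone genes, 1 panel per gene, with 1 point per library and the mean with its SD (n = 3) for each of the 4 groups (x axis). HIST1H2AC and HIST1H2BN are lower with TGFβ in both lines, HIST1H2BC is higher with TGFβ in both, and HIST1H1C, HIST1H2AC, HIST1H2BJ and HIST1H2BN are highest in the untreated edited line.

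The same treatment was then compared within the edited line, against its own untreated libraries. HIST1H2AC, HIST1H1C and HIST1H2BN fell again, while HIST1H2BD and HIST1H2BK hardly moved. Of the 41 members, 5 rose and 12 fell (12.2% and 29.3%), where 32.1% of all genes tested rose and 30.7% fell, 62.8% in all. The members' median log2 fold change was -0.37, against 0.03 over all genes. The count of 5 became 3 without replicate 1 of the treated edited line.

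HIST1H1C was at 3244, 3191 and 3127 untreated and 1656, 1271 and 1486 with TGFβ (-1.12 ± 0.10, adjusted p = 9.54e-08). HIST1H1D fell from 48.5, 49.3 and 60.5 to 8.35, 28.0 and 6.83 (-2.06 ± 0.41). HIST1H2AC was at 7797, 9036 and 8284 untreated and 2888, 2281 and 2998 treated, a 3.09-fold decrease (-1.63 ± 0.10, adjusted p = 3.70e-10). In these 3 genes every treated library lay below every untreated one.

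Among H2B genes, HIST1H2BN fell from 760.4, 713 and 746 to 168, 149.7 and 72.8 (-2.59 ± 0.23, adjusted p = 4.89e-08), the largest decrease among the 41 members. HIST1H2BJ fell from 462, 496 and 431 to 267, 282 and 274 (-0.75 ± 0.12, adjusted p = 3.23e-05). HIST1H2BC rose from 223, 232 and 223 to 299.6, 285 and 332 (0.43 ± 0.13, adjusted p = 0.00834), and HIST2H2BE from 617, 559.9 and 492 to 765, 718 and 749.7 (0.43 ± 0.10, adjusted p = 0.00179). HIST1H2BD was at 1443, 1478 and 1361 untreated and 1570.2, 1279 and 1621 treated, and HIST1H2BK at 2082, 1812 and 1954 against 2196, 1916 and 2224. The treated and untreated libraries of both genes overlapped, with log2 fold changes of 0.06 ± 0.09 and 0.11 ± 0.10 that did not pass. HIST1H2BE, at 94.9, 106 and 109 untreated and 181, 56.0 and 146 treated, did not pass either, with replicate 2 the low treated library. HIST1H2BH and HIST3H2BB, both low, rose (0.91 ± 0.32 and 0.56 ± 0.23). HIST3H2BB lost its call in 13 of 21 other fits, edgeR among them, with adjusted p from 0.0506 to 0.127. HIST1H2BH lost it with no filter beyond a value above 0 (0.91), without replicate 2 of the untreated edited line (0.71) and without the treated replicate 1 (0.77).

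Of 5 tested H3 genes, 4 fell, among them HIST1H3G, from 78.4, 77.2 and 53.9 to 35.5, 13.998 and 14.8 (-1.77 ± 0.37, adjusted p = 5.54e-04), and HIST1H3H (-0.52 ± 0.19, adjusted p = 0.0226). HIST1H3B also fell (-1.44 ± 0.47), though not when replicate 3 of the untreated edited line (-1.32) or the treated replicate 2 (-1.09) or 3 (-1.12) was left out. The HIST1H3H call ended when replicate 3 of the untreated edited line was left out (-0.45), and also without the treated replicate 2 (-0.42). HIST2H4A fell from 257, 402 and 208 to 62.6, 42.0 and 38.7 (-2.55 ± 0.28, adjusted p = 7.40e-07), and HIST1H4H from 1083, 821 and 967 to 413, 474 and 509.6 (-1.03 ± 0.13, adjusted p = 2.62e-06). HIST1H4E rose from 50.6, 41.8 and 58.0 to 77.3, 116 and 70.5 (0.78 ± 0.24, adjusted p = 0.00951), which no longer passed without replicate 2 of the treated edited line (0.56). HIST1H4I did not pass (0.23 ± 0.13, adjusted p = 0.128).

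The TGFβ comparisons of the lines share no library. The same 2 members rose in both (of 7 in wild type and 5 in the edited line), the same 8 fell in both (of 10 and 12), and 0 went opposite ways. Across the 41 members the log2 fold changes had Pearson's r = 0.75 and Spearman's rho = 0.74, against r = 0.89 over all genes tested. These are correlations across genes, which are not independent replicates, within 1 normalization.

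**Figure D3:**
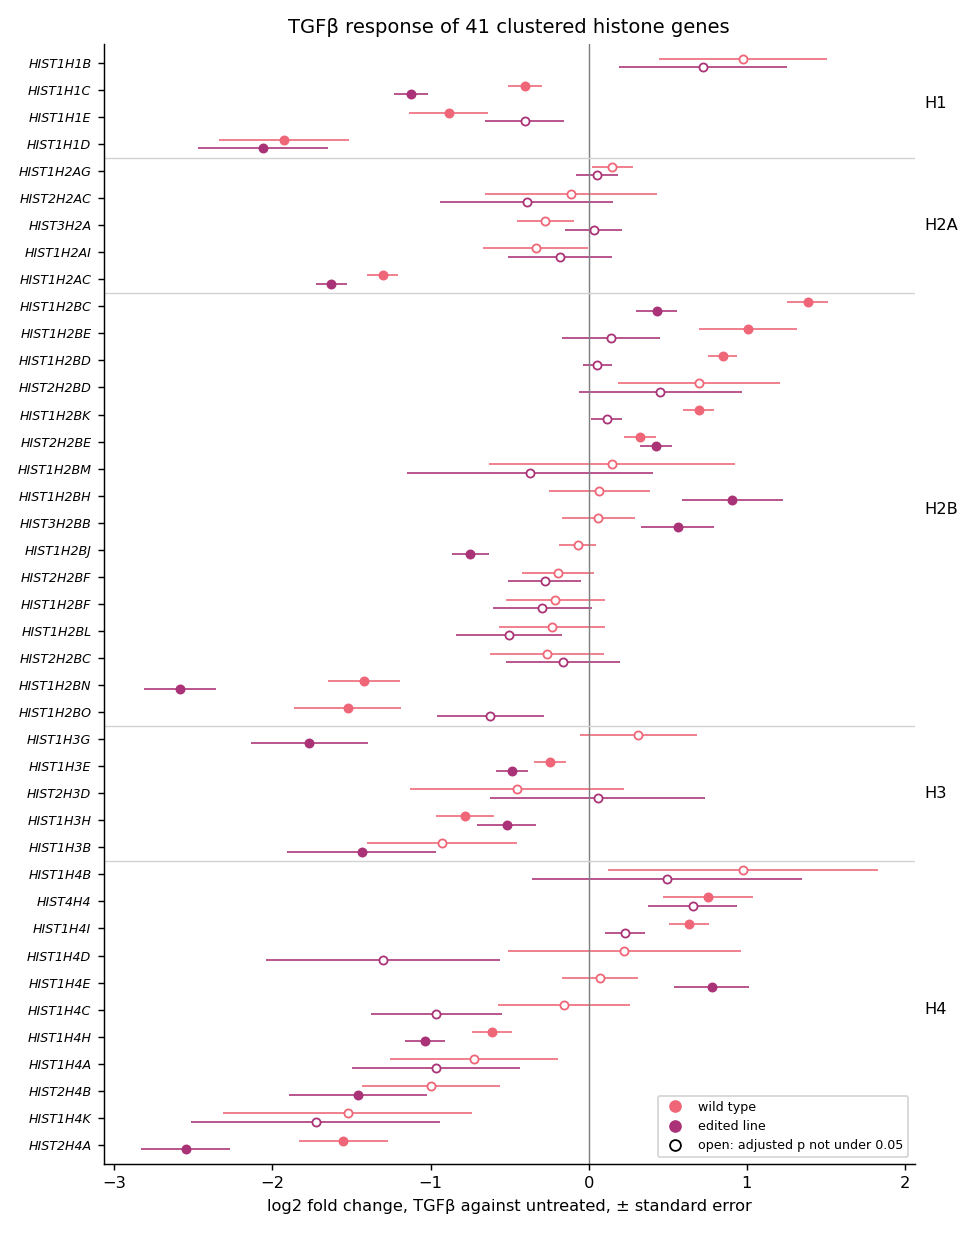
Log2 fold change with TGFβ (x axis, on the log2(value + 1) scale) for the 41 tested clustered histone genes (y axis), grouped by histone type, in wild type and in the edited line, with standard errors. Filled points have an adjusted p under 0.05. HIST1H2BC, HIST1H2BE, HIST1H2BD and HIST1H2BK lie above 0 in wild type and nearer to 0 in the edited line, and HIST1H2BN and HIST2H4A lie furthest below 0 in the edited line. The edited-line value of HIST1H2BE includes 1 low treated library (replicate 2, at 56.0).

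Many H2A and H2B genes are arranged in divergent pairs, read away from each other from a shared stretch of promoter. RefSeq starts gave 12 pairs of members on opposite strands within 1000 bases, and both genes were tested in 5 of them. HIST1H2BC and HIST1H2AC start 246 bases apart. With TGFβ they passed in opposite directions in both lines: in wild type HIST1H2BC had 1.39 ± 0.13 and HIST1H2AC -1.30 ± 0.10, and in the edited line 0.43 ± 0.13 and -1.63 ± 0.10. The ratio of HIST1H2AC to HIST1H2BC was 37.6 to 41.4 in untreated wild type and 5.04 to 7.30 with TGFβ, and 35.0 to 39.0 in the untreated edited line and 7.99 to 9.64 with TGFβ. In none of the other 4 pairs did both genes pass in the same line. HIST2H2BE rose in both lines while its partner HIST2H2AC, 236 bases away and low, had -0.11 ± 0.55 and -0.39 ± 0.55. In the edited line HIST1H2BJ fell (-0.75 ± 0.12) while HIST1H2AG, 248 bases away, had 0.05 ± 0.13.

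**Figure D4:**
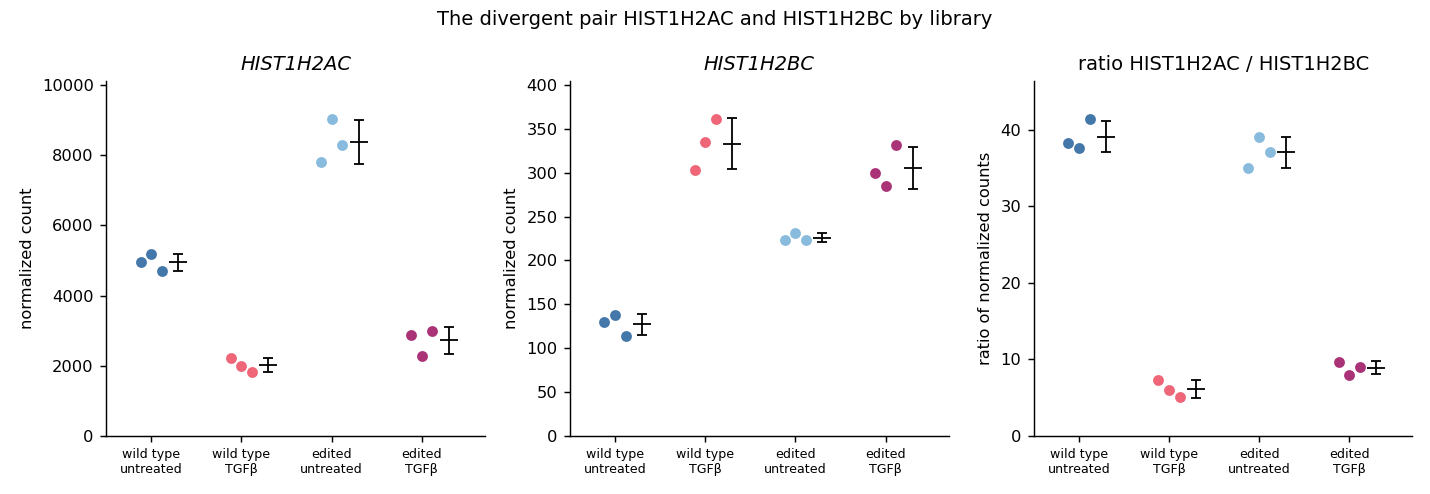
Normalized counts (y axes, linear from 0) of HIST1H2AC and HIST1H2BC and their ratio, with 1 point per library and the mean with its SD (n = 3) for each of the 4 groups (x axis). The ratio lies between 35.0 and 41.4 in the untreated libraries of both lines and between 5.04 and 9.64 in all TGFβ-treated libraries.

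The stretch between these starts, and the 5′ flanks of HIST1H2BN, which fell in both lines, and of HIST1H2BD and HIST1H2BK, which rose in wild type, are shown because these genes carry the TGFβ result. Each ends at the base before the RefSeq start, on the strand of the gene, and covers 250 bases or stops at the start of the divergent partner. Capitals mark TATAAA (the TATA box), CCAAT and ATTTGCAT (the octamer), searched on both strands.
HIST1H2AC, GRCh38.p14 chr6:26123927-26124171, plus strand: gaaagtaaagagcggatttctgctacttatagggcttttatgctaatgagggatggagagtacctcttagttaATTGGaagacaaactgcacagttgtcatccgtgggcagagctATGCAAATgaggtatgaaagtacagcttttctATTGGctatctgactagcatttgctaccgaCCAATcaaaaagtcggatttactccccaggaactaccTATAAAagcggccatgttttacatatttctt
HIST1H2BN, GRCh38.p14 chr6:27838376-27838568, plus strand: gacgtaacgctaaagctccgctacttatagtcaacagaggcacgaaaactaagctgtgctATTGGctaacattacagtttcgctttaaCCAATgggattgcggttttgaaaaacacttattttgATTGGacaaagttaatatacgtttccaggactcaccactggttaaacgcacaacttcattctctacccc
HIST1H2BD, GRCh38.p14 chr6:26157871-26158120, plus strand: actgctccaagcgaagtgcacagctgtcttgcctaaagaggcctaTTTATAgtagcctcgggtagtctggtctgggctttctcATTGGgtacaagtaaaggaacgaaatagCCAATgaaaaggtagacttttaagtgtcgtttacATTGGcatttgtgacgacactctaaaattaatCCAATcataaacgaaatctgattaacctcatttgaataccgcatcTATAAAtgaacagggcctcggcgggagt
HIST1H2BK, GRCh38.p14 chr6:27146856-27147105, minus strand: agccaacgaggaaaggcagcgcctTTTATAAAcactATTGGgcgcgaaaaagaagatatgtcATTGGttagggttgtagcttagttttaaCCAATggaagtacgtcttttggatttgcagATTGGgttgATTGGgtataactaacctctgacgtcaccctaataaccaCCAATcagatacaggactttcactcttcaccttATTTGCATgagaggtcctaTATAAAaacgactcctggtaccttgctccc

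The shared stretch of HIST1H2AC and HIST1H2BC held 3 CCAAT matches, 1 octamer match 130 bases before the HIST1H2AC start and 1 TATA match 31 bases before it. HIST1H2BN held 3 CCAAT matches. HIST1H2BD held 4 CCAAT matches and TATA matches 205 and 28 bases before its start. HIST1H2BK held 6 CCAAT matches, an octamer match and TATA matches that include an overlapping pair. RefSeq lists 2 starts for HIST1H2BD and for HIST1H2BK, and the first by position is used. Over windows from 250 bases before to 50 after the start, 65 members matched a RefSeq promoter. Of these, 25 held the octamer, against 1.77% of all 35116 promoters, and they were 11 of 16 H2A and 14 of 18 H2B members, with 0 of 6 H1, 0 of 12 H3 and 0 of 13 H4. Divergent partners share much of a window, so these members are not independent. Only the first start by position was counted for each member. The H3 gene HIST1H3D has another start, with the same window as HIST1H2AD, which held 1 octamer match. CCAAT was in 55 of the 65 (34.6% of all promoters), including 16 of 16 H2A, 18 of 18 H2B, 12 of 12 H3 and 3 of 13 H4 members, and TATAAA was in 44 (11.5% of all promoters). A match describes letters in a window and no binding was measured.

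The next comparison set the untreated edited line against untreated wild type. HIST1H1C, HIST1H2AC and a group of H2B genes were higher in the edited line, and 1 member was lower. Of the 41 members, 9 were higher and 1 lower (22.0% and 2.44%), where 14.3% of all genes tested were higher and 17.5% lower, 31.8% in all. The median log2 fold change was 0.15 over the members and 0.00 over all genes.

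HIST1H1C was at 2257, 1995 and 1749 in wild type and 3244, 3191 and 3127 in the edited line (0.68 ± 0.10, adjusted p = 1.39e-04). HIST1H2AC was 1.69-fold higher (0.76 ± 0.10, adjusted p = 2.39e-05). In both genes every edited library was above every wild type one. Among 16 H2B genes, 5 were higher and 0 lower: HIST1H2BN (365, 476 and 382 against 760.4, 713 and 746, 0.87 ± 0.23, adjusted p = 0.00848), HIST1H2BC (0.83 ± 0.13), HIST1H2BD (0.60 ± 0.09), HIST1H2BJ (0.53 ± 0.12) and HIST1H2BK (0.44 ± 0.10). Their wild type and edited libraries did not overlap. HIST2H2BE did not pass (0.13 ± 0.10, adjusted p = 0.382).

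Among H3 genes, HIST1H3G was at 30.9, 21.4 and 22.6 in wild type and 78.4, 77.2 and 53.9 in the edited line (1.45 ± 0.37, adjusted p = 0.00701), and HIST1H3E at 669, 662 and 633 against 857, 892 and 909 (0.44 ± 0.10, adjusted p = 0.00357). Of the 11 H4 genes none was higher. HIST1H4E was lower, at 112, 72.5 and 88.1 in wild type and 50.6, 41.8 and 58.0 in the edited line (-0.83 ± 0.24, adjusted p = 0.0138). That call, the only decrease, ended when untreated wild type lacked replicate 1 (-0.67) or the untreated edited line lacked replicate 2 (-0.71), and the count of lower members was then 0. All 9 higher members lie in the HIST1 cluster on chromosome 6, which holds 30 of the 41 tested. Whether they are more frequent there than in the other clusters was not tested.

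**Figure D5:**
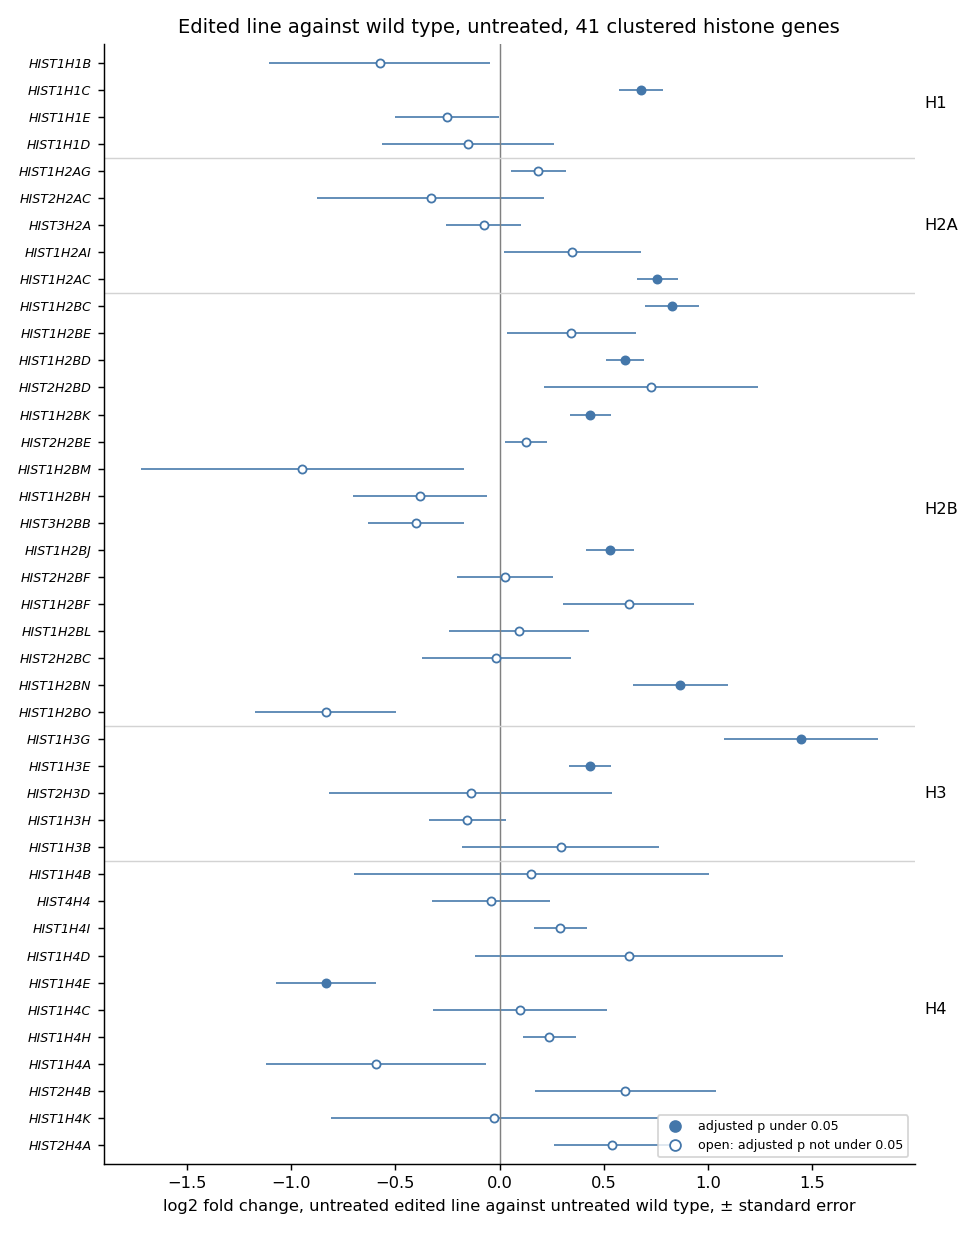
Log2 fold change of the untreated edited line against untreated wild type (x axis, on the log2(value + 1) scale) for the 41 tested clustered histone genes (y axis), grouped by histone type, with standard errors. Filled points have an adjusted p under 0.05: 9 lie above 0, led by HIST1H3G at 1.45, and HIST1H4E lies below 0.

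Genes of S phase were measured beside the clustered histone genes. Of 25 listed genes that act in DNA replication or the entry into it, 22 were lower and 0 higher in the untreated edited line, with a median of -0.93. They included E2F1 (-1.42 ± 0.09), the transcription factor of S phase entry, GINS2 (-1.49 ± 0.09) and MCM3 (-1.27 ± 0.07), parts of the replicative helicase, and RRM2 (-1.31 ± 0.07), a subunit of the enzyme that makes deoxynucleotides. Of 20 histone chaperones and HAT1, which carry or acetylate new histone, 14 were lower and 0 higher, including the chromatin assembly subunits CHAF1B (-1.11 ± 0.07) and CHAF1A (-0.81 ± 0.06). Over all genes tested, 17.5% were lower and 14.3% higher in this comparison. The part of both lists in the members' difference was not tested. SLBP was lower as well, at 3662, 3368 and 3157 in wild type and 2494, 2568 and 2458 in the edited line (-0.44 ± 0.08, adjusted p = 4.67e-04).

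With TGFβ present, few members separated the lines. Of the 41 members, 1 was higher in the edited line and 0 were lower, where 7.38% of all genes tested were higher and 4.32% lower, 11.7% in all. At an unadjusted p under 0.05 limma gave 2 higher and 0 lower members, and edgeR with adjusted p gave 1 and 0. The member was HIST1H2AC, at 2214, 1997 and 1821 in wild type and 2888, 2281 and 2998 in the edited line (0.43 ± 0.10, adjusted p = 0.00861), with no overlap. It no longer passed when only the compared groups were fitted (0.43, adjusted p = 0.0698) or without replicate 3 of the treated edited line (0.36, adjusted p = 0.0592). HIST1H1C, higher in the untreated edited line, was at 1678, 1386 and 1467 against 1656, 1271 and 1486 with TGFβ, which overlap (-0.04 ± 0.10, adjusted p = 0.854). Of the 25 S phase genes, 20 were lower in the edited line with TGFβ.

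Whether TGFβ acted differently on the 2 lines was tested as an interaction, the log2 fold change in the edited line minus that in wild type. It passed below 0 for 7 of the 41 members (17.1%) and above 0 for 0, where it passed above 0 for 10.6% of all genes tested and below 0 for 6.02%, 16.6% in all. Whether or not they passed, 11 of the 41 values were above 0. At an unadjusted p under 0.05 the counts were 11 and 0, and edgeR gave 7 and 0 with adjusted p. The 7 were HIST1H3G (-2.08 ± 0.52, adjusted p = 0.0122), HIST1H2BN (-1.17 ± 0.32, adjusted p = 0.0213), HIST1H2BC (-0.95 ± 0.18, adjusted p = 0.00216), HIST1H2BD (-0.79 ± 0.13, adjusted p = 6.76e-04), HIST1H1C (-0.72 ± 0.15, adjusted p = 0.00338), HIST1H2BJ (-0.68 ± 0.17, adjusted p = 0.00973) and HIST1H2BK (-0.58 ± 0.14, adjusted p = 0.00807). HIST1H2BD and HIST1H2BK rose in wild type and did not pass in the edited line, HIST1H2BC rose less in the edited line, and HIST1H1C and HIST1H2BN fell further there. HIST1H2BJ and HIST1H3G passed only in the edited line. The interaction and the untreated comparison both use the untreated libraries, so their values are not independent: for HIST1H2BC, for example, they were -0.95 and 0.83. The HIST1H2BN interaction no longer passed when untreated wild type lacked replicate 1 (-1.09) or 3 (-1.12), when treated wild type lacked replicate 2 (-1.10), or when the untreated edited line lacked replicate 1 (-1.15). HIST1H2AC, which fell in both lines, had an interaction of -0.33 ± 0.14 that did not pass (adjusted p = 0.120). Of the 25 S phase genes, 16 passed the interaction test above 0 and 1, CDC6, passed below.

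The 6 members listed for known polyadenylated messages (HIST1H1C, HIST1H2AC, HIST1H2BC, HIST1H2BD, HIST1H2BK and HIST2H2BE) moved both ways with TGFβ. In wild type 4 rose and 2 fell, with a median of 0.51, where 61.7% of all genes passed. In the edited line 2 rose and 2 fell, with a median of 0.08, where 62.8% of all genes passed. In the untreated edited line 5 were higher and 0 lower, with a median of 0.64, where 31.8% of all genes passed.

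Histone genes outside the clusters, most of them for variant histones, were tested beside the members. Of 11 tested, 5 rose and 3 fell with TGFβ in wild type (72.7%, against 61.7% of all genes), and 4 rose and 5 fell in the edited line (81.8%, against 62.8%). The linker histone genes H1F0 and H1FX fell in both lines (H1F0 -1.94 ± 0.06 in each, H1FX -1.22 ± 0.08 and -1.08 ± 0.08). H3F3A, for the replacement histone H3.3, rose (0.92 ± 0.08 and 0.80 ± 0.08), as did H2AFY2, for a macroH2A (0.98 ± 0.07 and 1.26 ± 0.07). In the untreated edited line 1 was higher, H2AFJ (0.34 ± 0.08), and 3 were lower (36.4% in all, against 31.8% of all genes).

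Genes that transcribe the clusters or process the 3′ end of their messages went both ways with TGFβ. In wild type 6 of 20 rose and 8 fell (30% and 40%), and in the edited line 9 rose and 8 fell (45% and 40%). Over all genes tested, 30.8% rose and 30.9% fell in wild type, and 32.1% rose and 30.7% fell in the edited line. SLBP rose in both lines (0.89 ± 0.08 and 0.97 ± 0.08), to 6812, 6519 and 5554 in wild type and 5176, 4693 and 4903 in the edited line. LSM10, of the U7 particle that positions the cut, fell in both (-1.11 ± 0.12 and -1.03 ± 0.12), while its partner LSM11 rose (0.32 ± 0.09 and 0.73 ± 0.09). NPAT, the coactivator of the clusters, rose in the edited line (0.54 ± 0.11) and did not pass in wild type (0.21 ± 0.11). Of 25 S phase genes, 10 rose and 8 fell with TGFβ in wild type (40% and 32%). In the edited line 18 rose and 5 fell (72% and 20%). CCNE1, for cyclin E1, was at 1.71 ± 0.09 in wild type and 2.14 ± 0.09 in the edited line.

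The labels name total RNA, and the sources used here do not say whether poly(A) RNA was selected. Such a step would under-sample messages that end at the stem-loop. Other RNAs without a poly(A) tail were therefore read beside the members. Of 12 listed, 5 were tested and RNU7-1 and RN7SL2 were at 0 in every library. The 12 summed to 155 to 316 normalized counts in untreated wild type, 361 to 603 with TGFβ, 224 to 251 in the untreated edited line and 295 to 328 with TGFβ. In wild type 4 of the 5 rose with TGFβ, RN7SK by 0.96 ± 0.25, and in the edited line 1 did. Over all genes tested, 30.8% rose and 30.9% fell in wild type, and 32.1% rose and 30.7% fell in the edited line. Between the untreated lines 0 of 5 passed by limma, also at an unadjusted p under 0.05. Their part in the members' TGFβ changes was not tested. Markers of cell types moved with TGFβ too. Fibroblast markers summed to 145 to 281 normalized counts in the 6 untreated libraries and 1200.5 to 2016 in the 6 treated. Of 6 epithelial markers, 1 rose and 5 fell in each line. Endothelial markers summed to 143 to 183 in the untreated edited line and 18.3 to 34.1 with TGFβ, and PECAM1 fell in both lines (-5.48 ± 0.52 and -4.47 ± 0.52). The leukocyte markers tested, PTPRC and LYZ, both low, fell in both lines. The part of these markers in the members' changes was not tested.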

How the data were processed

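RNA-seq of 12 libraries was read from 1 deposited table of gene values. The deposited signal is a normalized count per gene. The authors' tools, per the submitters' processing notes, were DESeq2, featureCounts, HISAT2 and StringTie, with GRCh38.p14. The sources used here give no roles, versions, annotation release or use of strand. Values were whole multiples of 1 step per library (100% within 0.01 of a whole read), which gave the depth of 84210775 to 111141708 reads per library.

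Genes were kept where 3 or more libraries reached 10. Values were tested as log2(value + 1) with limma 3.58.1 in R 4.3.3 (trend, all 4 groups in 1 fit, two-sided, Benjamini-Hochberg over 20456 genes, threshold 0.05), after a check on simulated data. Fold changes on this scale understate those of low genes. Each ± after a log2 fold change is a standard error. edgeR 4.0.16 on the recovered reads, other pseudocounts, filters and scalings, a replicate block, fits of only the compared groups and leaving out each library were alternatives.

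Members and lists were chosen with earlier results of these data known. Named were the 5 members with the highest mean, in each comparison up to 4 passing members per direction with a mean of at least 100 and the passing member of each type with the largest change, the members with known polyadenylated messages, and up to 4 passing genes of each other list. Other members and list genes were named to complete counts or for their role, and were chosen after their values were seen. Gene models came from GENCODE 29 and promoters from RefSeq on GRCh38.p14, which matched 65 of the 75 members.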

Additional observations from a re-analysis of the deposited data

Results flagged for a closer look

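For 7 of the 41 tested clustered histone genes the TGFβ responses of the lines differed by the interaction test (limma, adjusted p under 0.05). That is 17.1%, against 16.6% of all genes tested. All 7 passed below 0, as did 6.02% of all genes. The same 7 were higher in the untreated edited line, whose libraries also enter the interaction. HIST1H2BN lost its interaction call in 4 other fits. Each value is the log2 fold change in the edited line minus that in wild type. The values were -2.08 for HIST1H3G, -1.17 for HIST1H2BN, -0.95 for HIST1H2BC, -0.79 for HIST1H2BD, -0.72 for HIST1H1C, -0.68 for HIST1H2BJ and -0.58 for HIST1H2BK.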

How the results depend on the processing

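The 52 log2 fold changes of members that passed were refitted under up to 21 alternatives, since the stricter filter removed some of the genes. None of these 52 reversed, and 41 kept their call in every alternative that gave a value. The other 11 are given with the library or setting, or the number of fits, beside their values in the report. The count of members that rose with TGFβ in the edited line ran from 3 to 6 when single libraries were left out. The count lower in the untreated edited line was 2 with a pseudocount of 10 and 2 with a replicate block, and 0 to 1 with single libraries left out. With TGFβ, the count higher in the edited line was 0 when only the compared groups were fitted, and 0 to 1 with single libraries left out. That fit called 1183 genes in all, against 2394 in the fit of all groups.

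The HIST1H3H adjusted p in the edited line was 0.0837 and 0.0940 in the fits where it no longer passed. The labels do not say whether libraries with the same number were prepared together. Their deviations correlated at -0.03 to 0.13, and 8 of 12 libraries were closest to their own number. Between the untreated lines the replicate block called 7068 genes in all, against 6514 without it. A pairing is therefore neither shown nor excluded, and the main fit did not use one. With the replicate block, 10 members passed as higher in the untreated edited line, and 8 passed with an interaction below 0. No scaling moved the median of all genes by over 0.1. Low counts limited the 24 tested members with a mean under 100.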
